A study of Mus musculus with 18 samples.

Results

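Luminal cells of the mouse mammary gland were compared at mid pregnancy according to whether they belonged to the estrogen receptor positive (ER+) or the estrogen receptor negative (ER-) sorted population. A gene entered the comparison when its value was 10 or more in at least 2 of the 4 libraries concerned, which left 18594 of 46257 genes. The 2 ER+ libraries are labelled Pregnancy LC ER+ 1 and 2 and the 2 ER- libraries Pregnancy LC ER- 1 and 2. All 4, like the other 14 libraries of the study, came from mice of the genotype ERrtTA/TetOCre/rosaYFP, so the transgenes for a tetracycline-controlled Cre recombinase and a fluorescent Cre reporter are common to both groups. The study also sorted basal cells, and it repeated the 3 populations at puberty and in adults, which gives 9 groups of 2 libraries. Basal samples of puberty and pregnancy carry a cell type label that also says luminal; their names call them basal. The day of pregnancy, the age and strain of the mice, the sorting gates, any doxycycline treatment and the promoter that drives each transgene are not stated in these sources. Whether replicates came from different animals is not in the labels, so a p-value here reflects no more than how far the sequenced samples scatter, possibly for technical reasons.

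ER+ luminal cells carry the receptors for estrogen, progesterone and prolactin, and act as sensors of these hormones. They pass the signal on through secreted ligands, among them amphiregulin, WNT4 and RANK ligand, which act on neighbouring ER- luminal and basal cells. ER- luminal cells hold the alveolar progenitors, in which ELF5 and STAT5 drive the milk protein genes during pregnancy. The comparison therefore sets the ER+ and the ER- luminal populations side by side at the stage when alveoli are built.

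Promoter windows of 5 genes are shown, and those of Foxa1, Csn1s1 and Glycam1 were chosen after their matches were seen. Foxa1, Pgr and Areg belong to the ER+ population, and Csn1s1 and Glycam1 to milk formation. Each is the 250 bases before the RefSeq start in GRCm38.p6, 5′ to 3′ on the strand of the gene. Capitals mark a match to the forkhead motif TGTTTAC in the first 3 windows and to the STAT5 motif TTCNNNGAA in the last 2, on either strand.
Foxa1, chr12:57546112-57546361, minus strand: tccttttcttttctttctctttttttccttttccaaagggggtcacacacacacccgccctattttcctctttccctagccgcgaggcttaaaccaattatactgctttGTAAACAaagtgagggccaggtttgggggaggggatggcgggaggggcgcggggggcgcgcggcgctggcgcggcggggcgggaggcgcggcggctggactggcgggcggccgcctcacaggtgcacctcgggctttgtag
Pgr, chr9:8899583-8899832, plus strand: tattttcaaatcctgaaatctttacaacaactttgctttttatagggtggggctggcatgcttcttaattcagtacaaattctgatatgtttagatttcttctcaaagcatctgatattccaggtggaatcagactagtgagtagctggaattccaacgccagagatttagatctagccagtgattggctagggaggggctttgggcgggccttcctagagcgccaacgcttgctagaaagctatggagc
Areg, chr5:91139349-91139598, plus strand: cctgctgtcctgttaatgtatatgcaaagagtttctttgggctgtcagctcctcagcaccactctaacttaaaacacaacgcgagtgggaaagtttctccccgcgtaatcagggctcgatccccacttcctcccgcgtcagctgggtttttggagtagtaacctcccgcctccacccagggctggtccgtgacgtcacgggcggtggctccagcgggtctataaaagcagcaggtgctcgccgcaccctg
Csn1s1, chr5:87665958-87666207, plus strand: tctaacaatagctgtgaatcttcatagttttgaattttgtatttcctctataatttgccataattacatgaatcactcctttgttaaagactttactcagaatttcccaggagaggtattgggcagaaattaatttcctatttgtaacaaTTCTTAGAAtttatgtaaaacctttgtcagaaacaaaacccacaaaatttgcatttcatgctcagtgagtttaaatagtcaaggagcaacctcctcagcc
Glycam1, chr15:103565082-103565331, minus strand: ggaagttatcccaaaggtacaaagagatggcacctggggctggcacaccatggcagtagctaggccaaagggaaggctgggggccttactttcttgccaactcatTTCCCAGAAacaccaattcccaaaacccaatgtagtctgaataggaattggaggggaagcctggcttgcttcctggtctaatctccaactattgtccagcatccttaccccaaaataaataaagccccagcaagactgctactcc
The Foxa1 window holds the forkhead match GTAAACA, which begins 141 bases before the RefSeq start, and the Pgr and Areg windows hold none. By the GENCODE position given below, the Foxa1 window lies inside the gene. The Csn1s1 window holds TTCTTAGAA 100 bases before the start and the Glycam1 window TTCCCAGAA 145 bases before it. Among all 27025 genes with a window, 3.54% had the forkhead motif and 8.13% the STAT5 motif. Of the genes called higher in ER+ cells below, 241 had a window, and 11 of these (4.56%) had the forkhead motif and 14 (5.81%) the STAT5 motif. The 11723 tested genes with a window had them at 2.68% and 7.25%. Of 35 genes called lower with a window, 1 (2.86%) had the forkhead and 4 (11.4%) the STAT5 motif. A palindromic estrogen response element was found for 18 of all genes with a window and for 0 of the tested genes. A palindromic steroid receptor element was found for 119 of all genes with a window, for 43 of the tested genes and for 3 of those called higher. A match is a run of letters, not a measured binding site, and its absence says only that these letters are not in the window.

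Values are read counts scaled by the authors to 20000000 per library, as inferred from the values, and read numbers given below were recovered by undoing that scaling. Fold changes are differences of log2(value + 1), ER+ minus ER-, followed by the standard error (±). They were tested with limma, and each adjusted p is a Benjamini-Hochberg value over the 22315 genes fitted. The 4 libraries held 5280331 to 6363534 reads in genes, and 1 read was worth 3.12 to 3.75 units. The 18 libraries of the study ranged from 2406221 to 11292227 reads, the adult luminal ones being the lowest. Spearman correlations across genes, which are not independent replicates, were 0.974 between the ER+ and 0.979 between the ER- replicates and 0.937 to 0.968 between the groups. In both groups the 2 libraries differed, and for ER+ cells 2 libraries cannot show which is the unusual one. In ER+ replicate 2, genes called higher below were at a median of 0.521 times their value in replicate 1 (351 of 361 were lower), against 0.913 times for all tested genes. Genes called lower were at 1.39 times, with 37 of 46 above replicate 1. ER- replicate 2 had 0.62% of its values in mitochondrial genes, against 2.74% to 3.26% in the other 3 libraries. Its value of Csn2, the beta-casein gene, was 21279, against 253329 in ER- replicate 1.

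Of the 18594 genes, 407 (2.19%) passed an adjusted p of 0.05, with 361 (1.94%) higher and 46 (0.247%) lower in ER+ cells. At an unadjusted p under 0.05 there were 2764 (14.9%). Both ER+ libraries lay above both ER- libraries in 2908 genes (15.6%), and the reverse held for 5428 (29.2%). The direction of small changes depended on the scaling, since the median log2 fold change over all tested genes was -0.12 and moved to -0.02 with trimmed-mean factors. Counts depended on single libraries. They were 67 without ER+ replicate 1, 821 without ER+ replicate 2, 360 without ER- replicate 1 and 138 without ER- replicate 2, where the remaining library is taken to vary like the other groups. In the same order 4, 249, 17 and 0 genes were called lower. Of the 407 genes, 62 passed in each of 22 alternative analyses, all of them higher in ER+ cells. In 40 called genes a group was at 0, and 87 had 10 reads or fewer in the lower group. Bulk values cannot tell fewer cells of a type from less RNA per cell.

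**Figure D1:**
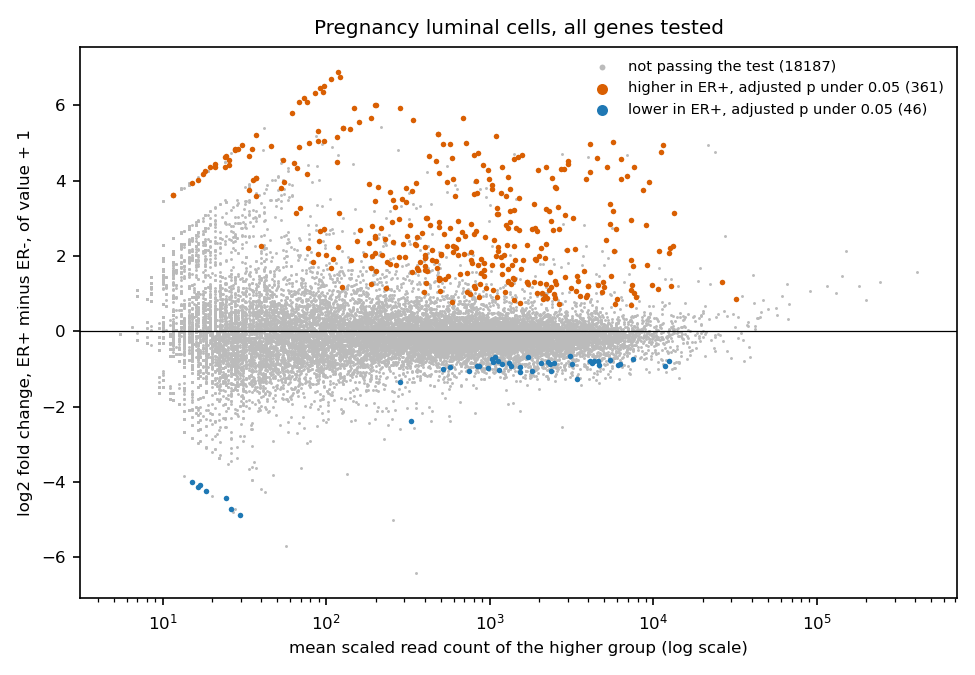
Log2 fold change (ER+ minus ER-, of value + 1) against the mean scaled read count of the higher group on a log axis, 1 point per tested gene. The called genes are 361 above and 46 below the line; the slanting rows at the left edge are genes with a group at 0, whose fitted change is no bound.

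The receptor genes for estrogen, progesterone and prolactin were all above in both ER+ libraries, the order the labels give, although of these Pgr alone passed the test. Esr1, the estrogen receptor gene (chromosome 10, 4611593 to 5005614), was at 5666 and 2096 in the ER+ and at 683 and 751 in the ER- libraries. The groups do not overlap, and the fold change of 2.27 ± 0.62 did not pass (adjusted p = 0.117). Pgr, the progesterone receptor gene (chromosome 9, 8899833 to 8968611), was at 8900 and 3694 in ER+ and at 424 and 278 in ER- cells, and passed (4.06 ± 0.68, adjusted p = 0.0146). The call was lost without ER+ replicate 1 (adjusted p = 0.221) and without ER- replicate 2 (adjusted p = 0.0849). Prlr, the prolactin receptor gene (chromosome 15, 10177238 to 10349180), had values of 39380 and 15215 against 3725 and 4795, and again the ER+ libraries were both above (2.53 ± 0.75, adjusted p = 0.152). The glucocorticoid receptor gene Nr3c1 had the opposite order, 1924 and 3714 in ER+ and 4256 and 5693 in ER- cells (adjusted p = 0.106). Over all genes 2.19% passed, 15.6% had both ER+ libraries above and 29.2% both ER- libraries above. Over the 16 receptor genes tested, 1 passed, 6 had both ER+ libraries above and 5 both ER- libraries above. Their median fold change was -0.11, beside -0.12 for all genes. Without ER+ replicate 2 there were 3 called higher and 2 lower, without ER- replicate 1 there was 1 higher, and without either of the others 0.

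**Figure D2:**
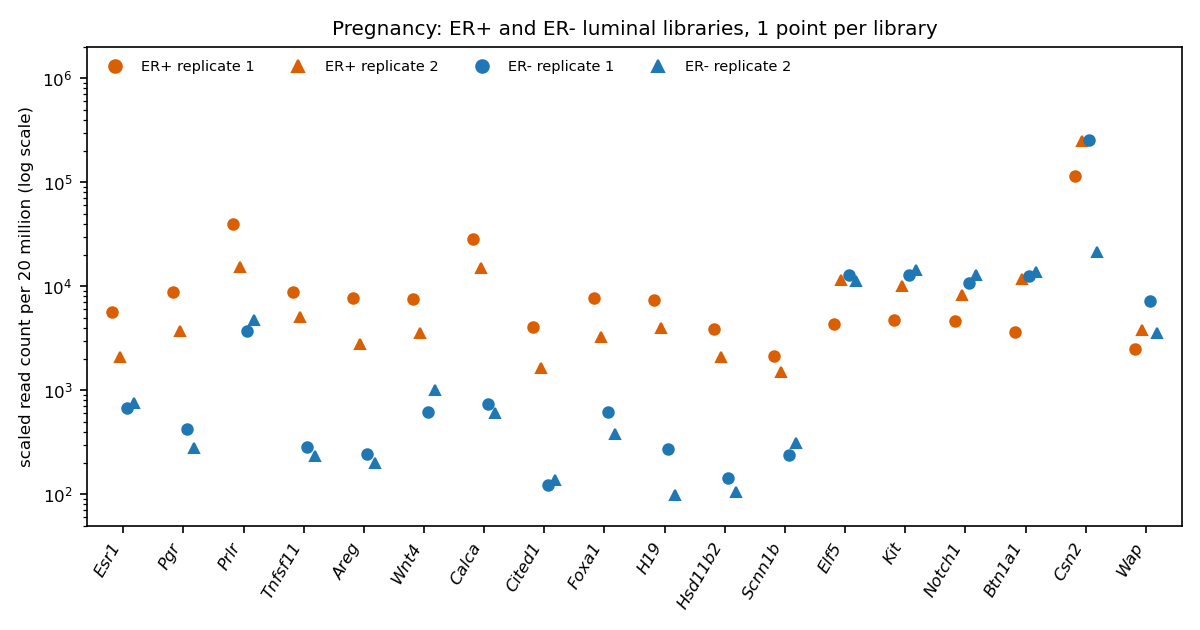
Scaled read counts on a log axis of 18 genes in the 4 pregnancy luminal libraries, with colour for the group and shape for the replicate. From Esr1 to Scnn1b both ER+ points lie above both ER- points, whereas for Elf5, Csn2 and Wap the points of the groups overlap.

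Some secreted ligands of ER+ cells had wide gaps between the groups, but 1 of 35 passed, where 2.19% of all genes did. Areg, the gene of the EGF receptor ligand amphiregulin that conveys the estrogen signal (chromosome 5, 91139599 to 91148432), was at 7671 and 2790 in ER+ and at 246 and 200 in ER- cells. It was the only ligand of 35 to pass (4.38 ± 0.79, adjusted p = 0.0213), and its call held in 18 of 22 alternatives. Among the losses were those with array weights, without ER+ replicate 1 (adjusted p = 0.289) and without ER- replicate 2 (adjusted p = 0.0982). Tnfsf11, the gene of RANK ligand (chromosome 14, 78277445 to 78308043), had 8763 and 5044 against 286 and 233, a wide gap without overlap. Its standard error was 2.13 on a fold change of 4.68 (adjusted p = 0.367), and its adult ER+ values were 939 and 42. Calca, which encodes calcitonin and the calcitonin gene-related peptide (chromosome 7, 114631478 to 114636357), was at 28214 and 14970 against 731 and 609 (4.94 ± 1.94, adjusted p = 0.283). Igf2, the insulin-like growth factor 2 gene, was at 34700 and 12642 against 1222 and 489 (4.76 ± 1.47, adjusted p = 0.168). Wnt4, a progesterone target that acts on basal cells, was at 7596 and 3578 against 616 and 999 (2.73 ± 0.64, adjusted p = 0.0657). Of the 35 ligands, 16 had both ER+ libraries above, where 15.6% of all genes did, and the median fold change was 0.31. Without ER+ replicate 2 the list had 3 called higher and 2 lower, without ER- replicate 1 it had 1 higher, and without either of the others 0.

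Among receptors and responders to these signals, 2 receptor genes of the ERBB family were higher in ER+ cells. Erbb4, a neuregulin receptor gene needed for lactation (chromosome 1, 68032186 to 69108059), was at 7643 and 3920 in ER+ and at 1128 and 1401 in ER- cells (2.12 ± 0.39, adjusted p = 0.00957). Erbb2, its coreceptor gene, was at 4497 and 3323 against 1720 and 2265 (0.97 ± 0.22, adjusted p = 0.0331). Both calls held without ER+ replicate 2 and were lost without each of the other 3 libraries, with adjusted p of 0.0673 to 0.213 for Erbb4 and 0.0752 to 0.492 for Erbb2. Of 22 alternatives Erbb4 passed in 18 and Erbb2 in 16. Fgfr2, a fibroblast growth factor receptor gene, had 4123 and 1618 against 623 and 526 and missed the threshold narrowly (adjusted p = 0.0507). The receptor of RANK ligand, Tnfrsf11a, lay the other way, at 733 and 1780 in ER+ and 1928 and 2696 in ER- cells (adjusted p = 0.173). Kit, the receptor tyrosine kinase gene of luminal progenitors, was at 4749 and 10178 against 12906 and 14408 (adjusted p = 0.431). Axin2, a target gene of WNT signalling, stood at 107 in both ER+ libraries and at 286 and 316 in ER- cells (adjusted p = 0.0825). Of all genes 2.19% passed, 15.6% had both ER+ libraries above and 29.2% both ER- libraries above. Of 24 genes in this group 2 passed, 5 had both ER+ libraries above and 12 both ER- libraries above, with a median of -0.39. Without ER+ replicate 2 there were 3 called higher and 5 lower.

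Of 18 transcription factor genes of the ER+ lineage 7 were higher and 0 lower, with a median fold change of 1.12. This list was drawn up with earlier results of these data known, so its count is no independent evidence. Of all genes 1.94% were higher. Cited1, a transcriptional coactivator gene marking ER+ cells (chromosome X, 102247381 to 102252181), was at 4026 and 1621 in ER+ and at 122 and 136 in ER- cells (4.30 ± 0.44, adjusted p = 0.000306). Tox3 followed with 1391 and 679 against 58 and 83 (3.79 ± 0.45, adjusted p = 0.000403), and Tbx3, a T-box gene required for mammary buds, with 3415 and 1463 against 411 and 290 (2.69 ± 0.36, adjusted p = 0.00152). These 3 passed under each of the 22 alternatives. Foxa1, the pioneer factor of estrogen receptor binding, was at 7646 and 3239 against 613 and 376 and passed narrowly (3.37 ± 0.72, adjusted p = 0.0474). That call held in 15 of 22 alternatives and was lost without each library but ER+ replicate 2. The gene spans 57540628 to 57546916 on chromosome 12 by GENCODE. Its window printed above was placed by the RefSeq start and lies inside this span. Msx2, a homeobox gene, had 577 and 272 against 27 and 8 (4.65 ± 0.86, adjusted p = 0.0141), the ER- values resting on 10 reads. Zbtb16, which encodes the zinc finger protein PLZF, had 3006 and 1392 against 159 and 293 (3.24 ± 0.56, adjusted p = 0.0121), and Myb had 3926 and 1408 against 418 and 308 (2.71 ± 0.56, adjusted p = 0.0326). Gata3, the luminal master regulator gene, was above in both ER+ libraries at a smaller margin, 7297 and 5519 against 3197 and 3999 (adjusted p = 0.0757). The 7 calls became 3 without ER+ replicate 1, 8 without ER+ replicate 2 (with 2 lower), 5 without ER- replicate 1 and 4 without ER- replicate 2.

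The list of ER+ luminal markers, like the other lists, was drawn up with earlier results of these data known and is no independent evidence. It had 9 of 16 members higher, where 1.94% of all genes were, 0 lower and a median of 3.13. It overlaps the groups above and adds Fxyd2, a sodium pump subunit gene (1298 and 675 against 51 and 61, 4.04 ± 0.84, adjusted p = 0.0292), and Cldn10, a tight junction gene (1192 and 456 against 44 and 46, adjusted p = 0.00289). Greb1, an estrogen-induced gene, was called at low values of 331 and 81 against 7 and 16, of which the ER- ones are 6 reads (3.82 ± 0.84, adjusted p = 0.0292). Prom1, the gene of the surface antigen CD133 used to sort ER+ cells in mice, was at 1918 and 753 against 189 and 136 (2.90 ± 0.63, adjusted p = 0.042). The 9 calls became 2 without ER+ replicate 1, 12 without ER+ replicate 2, 5 without ER- replicate 1 and 3 without ER- replicate 2.

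Of the regulators and markers of ER- luminal cells, 1 passed the test, where 2.19% of all genes did. Elf5, the alveolar master regulator gene (chromosome 2, 103411688 to 103450989), was at 4329 and 11434 in ER+ and at 12758 and 11272 in ER- cells. ER+ replicate 2 lies within the ER- range, and the fold change was -0.77 ± 0.68 (adjusted p = 0.686). Ehf, a related ETS factor gene, had 5289 and 11996 against 13310 and 15493 (adjusted p = 0.587), and Sox10 had 1482 and 3724 against 5293 and 5610 (adjusted p = 0.13). Stat5a, the prolactin-activated factor gene, was at 4650 and 7269 against 6541 and 7510 and overlapped. Only Cebpd, a C/EBP factor gene, passed among 17 (1912 and 2936 against 3722 and 4517, -0.79 ± 0.19, adjusted p = 0.0474). That call did not hold without ER+ replicate 1 (adjusted p = 0.666), ER- replicate 1 (0.0685) or ER- replicate 2 (0.361), nor with trimmed-mean factors (0.0846), and it passed in 6 of 22 alternatives. Without ER+ replicate 2, 7 of the 17 were lower. Of 12 ER- luminal markers without milk protein genes, 0 passed, and the median was -0.84. Both ER- libraries lay above in 9 of the 12 and in 29.2% of all genes. Cd14, the endotoxin coreceptor gene, was at 2002 and 4599 against 5003 and 5790, Aldh1a3 at 568 and 511 against 821 and 605, Cxcl1 at 2105 and 3372 against 4196 and 3785, and Krt23 at 275 and 320 against 411 and 526.

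Milk protein genes were abundant in both populations and 0 of 21 passed, where 2.19% of all genes did. Csn2, the beta-casein gene (chromosome 5, 87692624 to 87699630), was at 113910 and 249723 in ER+ and at 253329 and 21279 in ER- cells. Csn1s1, whose window is printed above (gene on chromosome 5, 87666208 to 87682578), was at 111865 and 284896 against 284551 and 35475, and Csn3 at 30515 and 81581 against 81042 and 13187. The values of ER+ replicate 2 match those of ER- replicate 1 more closely than each matches its own group, and ER- replicate 2 is the lowest of the 4. Glycam1 showed the same order, 15529 and 40605 against 39408 and 8993. Wap, the whey acidic protein gene (chromosome 11, 6635482 to 6638637), was at 2504 and 3830 against 7261 and 3556 and overlapped (-0.71 ± 1.06, adjusted p = 0.824). Summed over the 22 genes found in the table, caseins and whey proteins made up 396640 and 953439 units in the ER+ pair, 949131 and 197810 in the ER- pair and 338368 and 472746 in the basal pair. Other milk genes kept another order: Btn1a1, a milk fat globule gene, was at 3624 and 11744 against 12519 and 13604 (adjusted p = 0.589), and Lalba, the alpha-lactalbumin gene, at 294 and 637 against 714 and 905 (adjusted p = 0.674). How far casein transcripts in the ER+ libraries came from ER+ cells was not tested.

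Calls among genes of milk fat, lactose and mineral supply are set beside the 2.19% of all tested genes that were called. Of 37 milk fat genes 1 passed, Lpin2, a phosphatidate phosphatase gene (4222 and 1709 in ER+, 636 and 571 in ER- cells, 2.15 ± 0.32, adjusted p = 0.00257), which passed under each alternative. Fasn, the fatty acid synthase gene, overlapped at 14584 and 39475 against 34822 and 43083. Of 16 genes of glucose uptake and lactose synthesis 0 passed, with a median of -0.10. Among 18 genes of calcium, phosphate and zinc transport 2 were lower in ER+ cells, where 0.247% of all tested genes were. Atp2b1, a plasma membrane calcium pump gene, had 2866 and 3714 against 6110 and 5986 (-0.89 ± 0.19, adjusted p = 0.0264), and Slc20a1, a phosphate transporter gene, 2130 and 2955 against 4630 and 4653 (-0.89 ± 0.22, adjusted p = 0.0486). Without ER+ replicate 2 both stayed called. Without ER+ replicate 1 their adjusted p was 0.44 and 0.622, without ER- replicate 1 it was 0.0998 and 0.129, and without ER- replicate 2 it was 0.161 and 0.252. Neither passed with trimmed-mean factors. Atp2b1 passed in 12 and Slc20a1 in 9 of 22 alternatives. The list's median was -0.47, and that of the milk fat genes -0.51.

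Sodium channel genes and a steroid-metabolizing enzyme gene were high in ER+ cells. Of 24 amino acid and ion transporter genes 4 were higher, where 1.94% of all genes were, and 0 lower. The 4 include 3 subunits of the epithelial sodium channel, which takes up sodium at the apical membrane. Scnn1a was at 2517 and 1198 in ER+ and at 202 and 136 in ER- cells (3.38 ± 0.58, adjusted p = 0.0124). Scnn1b (chromosome 7, 121865038 to 121918514) was at 2127 and 1489 against 239 and 308 (2.71 ± 0.43, adjusted p = 0.00354). Scnn1g (chromosome 7, 121734479 to 121768475) was at 1329 and 1173 against 149 and 203 (2.84 ± 0.40, adjusted p = 0.00122). The fourth was Slc7a2, a cationic amino acid transporter gene (11722 and 5503 against 650 and 541, 3.76 ± 0.46, adjusted p = 0.00163). Hsd11b2, whose enzyme inactivates glucocorticoids and so leaves the mineralocorticoid receptor to aldosterone (chromosome 8, 105518755 to 105523988), was at 3914 and 2074 against 142 and 106 (4.53 ± 0.43, adjusted p = 9.81e-05). Hsd11b2, Scnn1g and Slc7a2 passed in all 22 alternatives, whereas without ER+ replicate 1 Scnn1a (adjusted p = 0.198) and Scnn1b (adjusted p = 0.0967) did not. Scnn1a was also lost without ER- replicate 2 (adjusted p = 0.108). The 4 calls became 2 without ER+ replicate 1, 6 (with 1 lower) without ER+ replicate 2, 4 without ER- replicate 1 and 3 without ER- replicate 2.

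Signalling genes downstream of these receptors gave mixed results. Socs2, a feedback inhibitor gene of the prolactin and growth hormone pathway, was at 6860 and 3636 in ER+ and 1286 and 1303 in ER- cells and just missed the threshold (1.95 ± 0.46, adjusted p = 0.0543). In the interferon response list 3 of 26 were higher, namely Stat2 (2230 and 1215 against 535 and 887, 1.26 ± 0.28, adjusted p = 0.0315), Irf9 (2052 and 2668 against 757 and 1439, 1.16 ± 0.26, adjusted p = 0.0331) and Usp18 (119 and 94 against 34 and 31, 1.67 ± 0.32, adjusted p = 0.0126). The first 2 encode partners in the interferon-activated complex ISGF3, and USP18 is a negative regulator of the receptor. The list's other members had no call and its median was -0.50. Of all genes 1.94% were called higher. The 3 calls became 0 without ER+ replicate 1, 2 without ER+ replicate 2, 1 without ER- replicate 1 and 2 without ER- replicate 2. Of 27 secretory pathway genes 1 was higher, and of 24 JAK-STAT5 genes 1, which was Stat2. Ern1, the gene of the stress sensor IRE1, was the secretory pathway gene (5068 and 2907 against 1508 and 1840, 1.20 ± 0.22, adjusted p = 0.00729). It was lost without ER+ replicate 1 (adjusted p = 0.172) and without ER- replicate 1 (adjusted p = 0.0672). Dsp, the desmoplakin gene, was the third called member of 30 keratin and adhesion genes beside Cldn10 and Prom1 (10322 and 4363 against 1824 and 1788, 1.89 ± 0.41, adjusted p = 0.0437). Calls of these 30 went from 3 to 0 without ER+ replicate 1 and to 1 without either ER- replicate.

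Notch receptor genes Notch1 and Notch2 were lower in ER+ cells. Notch1 was at 4665 and 8280 in ER+ and at 10871 and 12819 in ER- cells (-0.93 ± 0.21, adjusted p = 0.0336). Notch2 had 2779 and 3759 against 5071 and 5828 (-0.75 ± 0.15, adjusted p = 0.0149), and the coactivator gene Maml2 had 992 and 1657 against 2187 and 2509 (-0.87 ± 0.20, adjusted p = 0.0352). These 3 of 23 genes passed, where 0.247% of all tested genes were called lower. Both ER- libraries lay above in 11 of the 23 and in 29.2% of all genes. Without ER+ replicate 1 or ER- replicate 2 none of the 3 passed, and without ER- replicate 1 only Notch2 did (adjusted p = 0.0281). With trimmed-mean factors Notch2 alone of the 3 was called. Of 22 alternatives Notch1 passed in 10, Notch2 in 17 and Maml2 in 9. Hey1, a Notch target gene, was at 131 and 65 against 196 and 158 (adjusted p = 0.196).

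**Figure D3:**
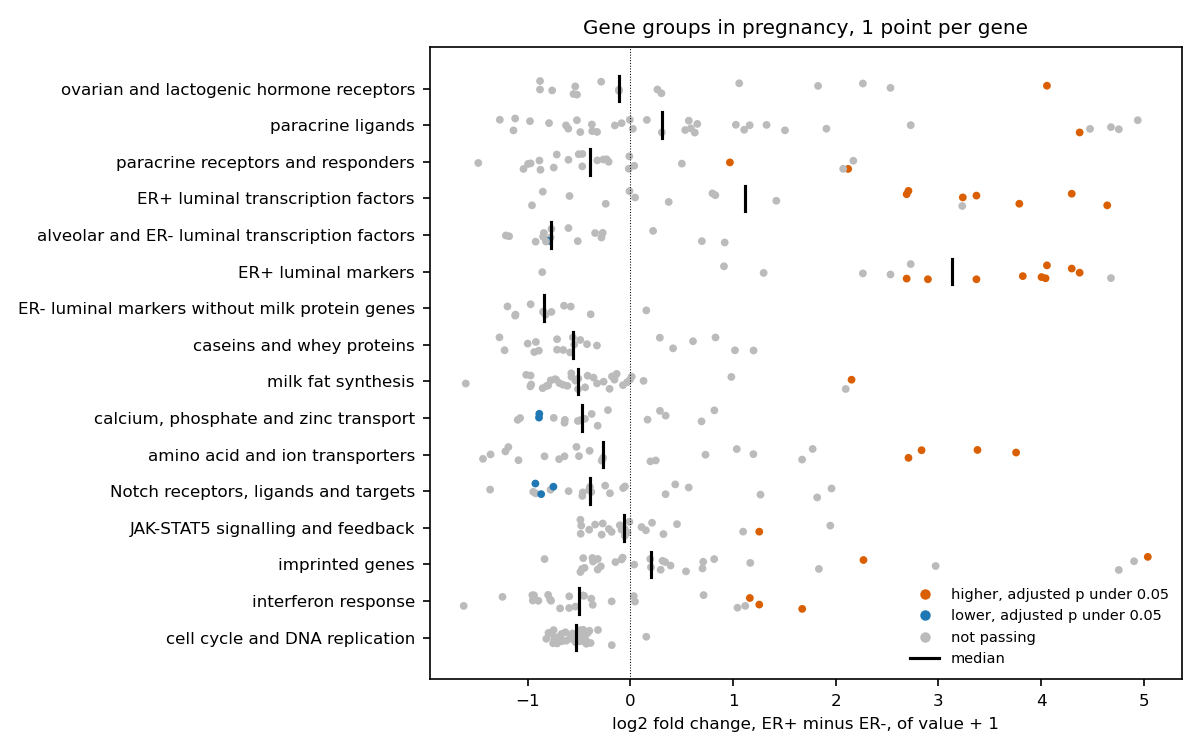
Log2 fold changes (ER+ minus ER-, of value + 1) of the genes of 16 lists, 1 point per gene, with a bar at the median of the list. Called points lie far to the right for ER+ transcription factors and markers, while the few called lower, in the calcium, Notch and ER- factor lists, lie between -1 and 0.

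Imprinted genes were measured as a list of 31, of which 2 were higher and 0 lower, beside 1.94% and 0.247% of all genes. H19, an imprinted long noncoding RNA (chromosome 7, 142575529 to 142578143), was at 7384 and 3933 in ER+ and at 270 and 98 in ER- cells (5.04 ± 0.72, adjusted p = 0.0022). Leaving out ER+ replicate 1 put it at an adjusted p of 0.0527. Peg3, a paternally expressed zinc finger gene (chromosome 7, 6703892 to 6730431), was at 16873 and 9526 against 2547 and 2708 (2.27 ± 0.30, adjusted p = 0.000939) and passed in all 22 alternatives. Igf2, the neighbour of H19, had the values given with the ligands. The median of the list was 0.20, and 6 of its genes had both ER+ and 6 both ER- libraries above. Over all genes these shares were 15.6% and 29.2%.

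Cell cycle genes did not pass in either direction, yet 34 of 36 had both ER- libraries above both ER+ libraries, where 29.2% of all genes did. Mki67, the proliferation marker, was at 11348 and 14912 in ER+ and 20813 and 20415 in ER- cells (-0.66 ± 1.12, adjusted p = 0.858). Ccna2, the cyclin A2 gene, was at 1160 and 1731 against 2376 and 2633 (adjusted p = 0.84), and Ccnd1, the cyclin D1 gene, at 2289 and 3310 against 5138 and 5039 (adjusted p = 0.359). In adults the ER- libraries had 16523 and 3409 of Mki67, and at puberty 4672 and 1641. The median of the list was -0.53, and genes of one process are not independent observations. The 10 CDK inhibitor and cyclin D genes, 16 antigen presentation genes and 23 immediate-early genes had 0 calls, with medians of 0.01, -0.71 and -0.18. Calls covered 2.19% of all genes.

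The 12 largest rises, taken among called genes whose higher group had a mean above 284.5, the median over tested genes, had fold changes of 4.74 to 5.68. Slc16a5, a monocarboxylate transporter gene, led with 899 and 469 against 17 and 8 (5.68 ± 0.65, adjusted p = 0.000292; 7 reads in ER- cells). Upk3a, the uroplakin 3A gene, had 434 and 243 against 4 and 8, and since the ER- values are 3 reads, the ratio of reads was 63.8 with a counting interval of 21.5 to 312. Pnmt, the enzyme gene that makes adrenaline, was at 1011 and 1179 against 27 and 31 (5.19 ± 1.08, adjusted p = 0.0202). A pair of receptor genes for vasoactive signals followed at higher levels. Adra1a, the alpha-1A adrenergic receptor gene, was at 5629 and 2571 against 165 and 87 (4.98 ± 0.51, adjusted p = 0.000117), and Agtr1a, an angiotensin II receptor gene, at 14098 and 8021 against 448 and 335 (4.78 ± 0.80, adjusted p = 0.014). Snhg11, a noncoding host gene of small nucleolar RNAs, was at 14955 and 8070 against 364 and 346 (4.95 ± 0.61, adjusted p = 0.00176). Lgi2, Elfn1, Cldn6 and Aldh1a7 rested on 17, 11, 9 and 10 ER- reads, and H19, described above, completes the group named here. Of the 12 rises 4 stayed called without ER+ replicate 1, 10 without ER+ replicate 2, 9 without ER- replicate 1 and 5 without ER- replicate 2. Slc16a5, Upk3a, Adra1a and Snhg11 were the 4 that passed under each alternative.

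The 12 largest falls under the same level condition ranged from -2.38 to -0.93. C3ar1, the receptor gene for complement fragment C3a, was at 69 and 55 in ER+ and 371 and 286 in ER- cells (-2.38 ± 0.58, adjusted p = 0.0481). Macrophage markers moved with it. Mrc1 was at 580 and 378 against 3210 and 2306, Csf1r at 400 and 275 against 1440 and 1127, and Adgre1, which encodes F4/80, at 85 and 84 against 360 and 346. None of these 3 passed (adjusted p = 0.175 to 0.312), and the part of such cells in the fall of C3ar1 was not tested. Spns2, a sphingosine-1-phosphate transporter gene, was at 930 and 2157 against 3089 and 3706 (-1.26 ± 0.30, adjusted p = 0.0474), and Cadm1, a cell adhesion gene, at 596 and 869 against 1420 and 1630 (-1.08 ± 0.22, adjusted p = 0.0157). Psd, Mcc, Il1rap, Trim47, Mamld1, Flrt3, Stk26, Ctsc and Ephx1 had fold changes of -1.06 to -0.93. Of the 12 falls 0 stayed called without ER+ replicate 1, 9 without ER+ replicate 2, 3 without ER- replicate 1 and 0 without ER- replicate 2. With trimmed-mean factors 5 of the 12 passed, and C3ar1 did not (adjusted p = 0.0698); it passed in 10 of 22 alternatives.

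The ER+ and ER- difference was then set against that at puberty and in adults, to ask whether it changed with the stage. The interaction was called for 513 genes (2.76%) against puberty, 325 above 0 (1.75%) and 188 below 0 (1.01%). Against adults it was called for 427 (2.3%), 382 above 0 (2.05%) and 45 below 0 (0.242%). Over the same 18594 genes, 2710 (14.6%) separated ER+ from ER- cells at puberty, 1222 higher (6.57%) and 1488 lower (8%). In adults 3441 (18.5%) did, 1161 higher (6.24%) and 2280 lower (12.3%). The 2 interactions share the 4 pregnancy libraries, so they are not independent. The adult luminal libraries were shallow, at 2406221 to 3165238 reads, with mitochondrial shares of 4.73% to 7.07%, and their part in the differences from adults was not tested. Without ER- replicate 2 of pregnancy 202 and 200 genes were called, and without ER+ replicate 2 of pregnancy 336 and 287. Without puberty ER+ replicate 2, puberty ER- replicate 1 and puberty ER- replicate 2, 159, 310 and 178 were called against puberty, and without adult ER- replicate 2, 195 against adults.

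Erbb4 changed sides. At puberty it was at 273 and 171 in ER+ and 1941 and 2047 in ER- cells, and in adults at 225 and 215 against 1698 and 2569. In pregnancy the ER+ values of 7643 and 3920 were the highest of the 12 luminal libraries. The differences of the fold change were 5.32 ± 0.54 from puberty (adjusted p = 0.000293) and 5.36 ± 0.54 from adults (adjusted p = 0.000305), called in each alternative.

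The sodium channel genes behaved likewise. Scnn1g was at 88 and 55 against 453 and 376 at puberty and at 140 and 83 against 89 and 207 in adults, a difference from puberty of 5.39 ± 0.56 (adjusted p = 0.000202) and from adults of 3.17 ± 0.56 (adjusted p = 0.00731). Scnn1b went from 324 and 213 against 1439 and 1267 at puberty, and 528 and 586 against 757 and 1003 in adults, to the pregnancy values above (5.07 ± 0.61, adjusted p = 0.000658 from puberty, and 3.36 ± 0.61, adjusted p = 0.00957 from adults). The adult difference of Scnn1b was not called without adult ER- replicate 2 or with array weights (highest adjusted p = 0.104). Hsd11b2 was low everywhere before pregnancy, at 20 and 19 against 23 and 41 at puberty and 86 and 50 against 75 and 63 in adults (5.16 ± 0.61, adjusted p = 0.000437, and 4.59 ± 0.61, adjusted p = 0.00126). The third subunit gene, Scnn1a, had no called difference. Its ER+ libraries were already above at puberty, at 3768 and 6288 against 1257 and 1630 (difference 1.62 ± 0.82, adjusted p = 0.428).

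Of the imprinted genes, Peg3 was below ER- cells before pregnancy, at 1321 and 862 against 2648 and 1749 at puberty and 427 and 504 against 934 and 1210 in adults (3.28 ± 0.42, adjusted p = 0.00102, and 3.47 ± 0.42, adjusted p = 0.000857). H19 was scarce at both earlier stages, at 103 and 65 against 21 and 88 and at 233 and 66 against 89 and 57. Its difference from adults of 4.25 ± 1.01 was called (adjusted p = 0.0491) and that from puberty of 4.14 ± 1.01 was not (adjusted p = 0.0506). The adult call held in 9 of 23 alternatives (highest adjusted p = 0.18). It was lost without pregnancy ER+ replicate 1, ER+ replicate 2 or ER- replicate 2, and without adult ER+ replicate 2, ER- replicate 1 or ER- replicate 2.

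**Figure D4:**
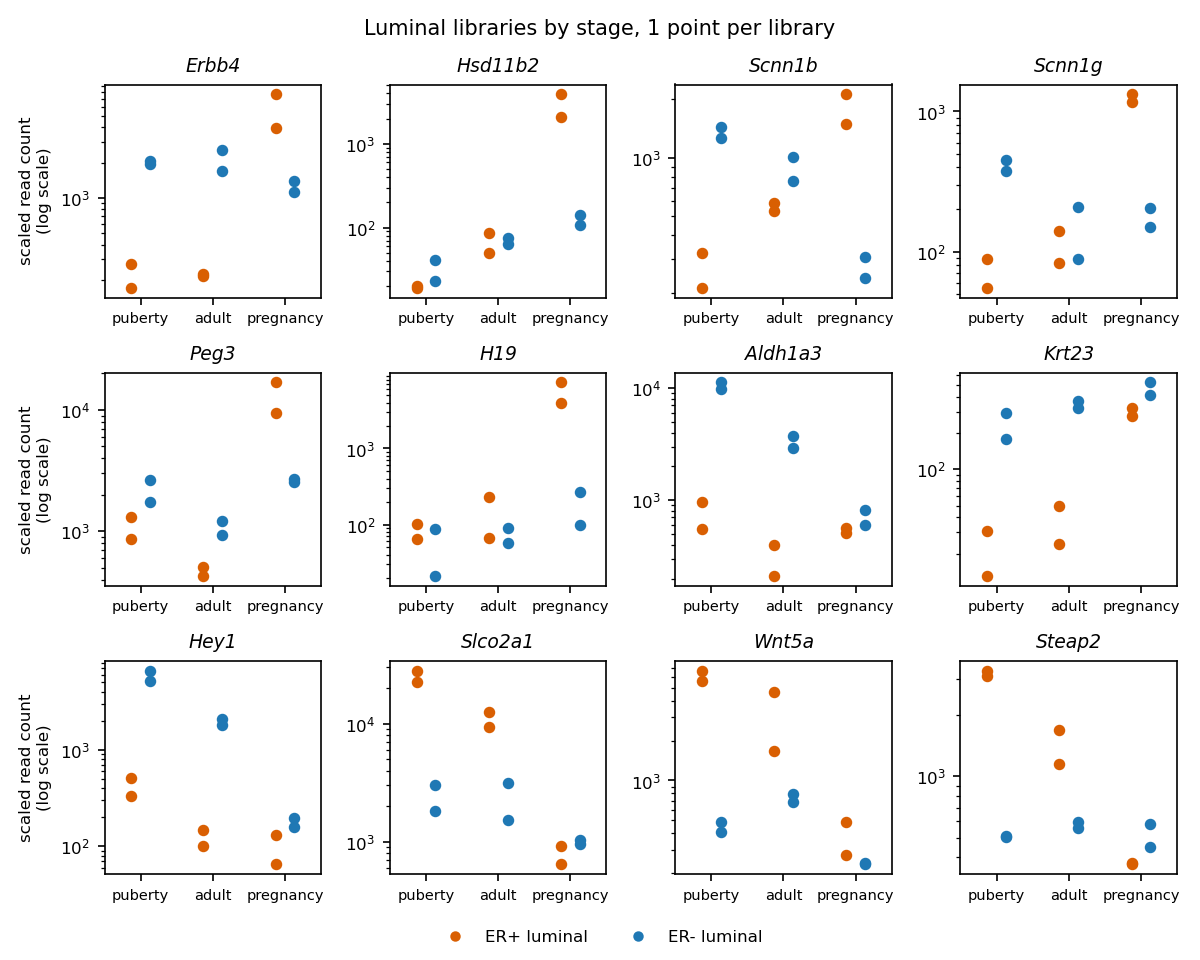
Scaled read counts (log axes, 1 panel per gene) in the 12 luminal libraries by stage, with 1 point per library. In the first 6 genes both ER+ points lie above both ER- points in pregnancy and not at the other stages. Slco2a1, Wnt5a and Steap2 have an ER+ excess at puberty, and in pregnancy Slco2a1 and Steap2 have the ER- points above.

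Other genes narrowed or lost their gap in pregnancy. The ER- markers Aldh1a3, a retinaldehyde dehydrogenase gene, and Krt23, a keratin gene, had ER- values of 9803 and 11221 and of 291 and 179 at puberty against ER+ values of 965 and 557 and of 31 and 13. The gap of Aldh1a3 was smaller in pregnancy by 3.45 ± 0.58 (adjusted p = 0.00711) and that of Krt23 by 2.79 ± 0.63 (adjusted p = 0.0292). For Aldh1a3 the ER- values are the ones that were lower in pregnancy, and for Krt23 the values of both populations were higher in pregnancy, the ER+ ones by the larger factor. The call of Krt23 held in 16 of 24 alternatives (highest adjusted p = 0.154). It was lost without each of the 4 pregnancy luminal libraries and without puberty ER+ replicate 2, ER- replicate 1 or ER- replicate 2. Hey1 went from 515 and 334 against 5111 and 6613 at puberty to at most 196 in each pregnancy luminal library (2.88 ± 0.46, adjusted p = 0.00413, and 3.03 ± 0.46, adjusted p = 0.00313 from adults). Atp2b1 kept its direction at a smaller gap (2.25 ± 0.27, adjusted p = 0.000612, and 1.96 ± 0.27, adjusted p = 0.00184). Over the 12 ER- luminal markers, 8 were lower in ER+ cells at puberty and 11 in adults, with medians of -2.69 and -3.01, against 0 and -0.84 in pregnancy, and 3 differed by the test from each earlier stage. Caseins and whey proteins had medians of -3.27 and -3.33 with 15 and 13 called lower, and 2 and 3 of 21 differed from puberty and adults. ER+ luminal markers had 13 and 8 called higher, medians of 3.22 and 2.20, and 0 that differed from either stage. Calls over all tested genes fell as well. At puberty, in adults and in pregnancy 8%, 12.3% and 0.247% were lower, and 6.57%, 6.24% and 1.94% higher. The differences from puberty and adults were called for 2.76% and 2.3% of all tested genes.

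Among genes with an ER+ excess at puberty, Slco2a1, a prostaglandin transporter gene, had lost it in pregnancy. It was at 22520 and 28014 in ER+ and 2998 and 1835 in ER- cells at puberty, and at 923 and 646 against 1033 and 962 in pregnancy (-3.79 ± 0.60, adjusted p = 0.00781). Wnt5a, a noncanonical WNT ligand gene, had 5611 and 6743 against 408 and 486 at puberty and 490 and 272 against 239 and 233 in pregnancy (-3.16 ± 0.53, adjusted p = 0.00707). Steap2, a metalloreductase gene, had 3103 and 3313 against 505 and 511 and then 375 and 369 against 451 and 586 (-3.12 ± 0.26, adjusted p = 4.12e-05). These 3 differences from puberty were called in each alternative. From adults Slco2a1 differed by -2.68 ± 0.60 (limma, adjusted p = 0.0455), a call that held in 8 of 23 alternatives. Steap2 differed from adults by -1.74 ± 0.26 (adjusted p = 0.00298), and Wnt5a had no called difference from adults. Hpgd, the gene of the enzyme that degrades prostaglandins, took the opposite course to Slco2a1. It was at 16 and 34 against 72 and 100 at puberty and at 531 and 275 against 105 and 61 in pregnancy (4.06 ± 0.71, adjusted p = 0.00707).

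Markers of other cells were read in the same libraries. Of 19 basal cell markers 0 passed, where 2.19% of all genes did. Their summed level was 43268 and 33558 in ER+ and 47019 and 45005 in ER- libraries, against 388312 and 377004 in basal libraries, and Krt14 was at 2227 and 1663 against 2712 and 2719. Fibroblast markers summed to 85033 and 41507 in ER+ and 26724 and 22849 in ER- libraries, and 9 of 10 had both ER+ libraries above, led in level by Col1a1 (25071 and 12380 against 7594 and 6447, adjusted p = 0.45). Pdgfra, a defining fibroblast gene, was at 1179 and 650 against 468 and 372 (adjusted p = 0.421), and 0 of the 10 passed. ER+ replicate 1 had the higher of the ER+ values in 351 of the 361 genes called higher. Of the ER+ replicates it also had the larger sum of fibroblast, basal, endothelial, pericyte, macrophage, lymphocyte and adipocyte markers. ER- luminal markers without milk protein genes had the reverse order, at 22441 and 49291 in ER+ libraries, against 57384 and 61806 in ER- libraries. ER+ luminal markers summed to 99340 and 41156 in ER+ and 7886 and 8694 in ER- libraries. Macrophage and dendritic cell markers summed to 2466 and 1990 in ER+ and 8721 and 7323 in ER- libraries, with 10 of 11 above in ER- cells and 0 passing. Over all tested genes, both ER+ libraries lay above in 15.6% and both ER- libraries in 29.2%. Lymphocyte and leukocyte markers summed to 374 and 335 against 858 and 954, and Ptprc, the gene of CD45, stood at 228 and 201 against 498 and 534 (adjusted p = 0.551). No basal, fibroblast or endothelial marker was at 0 in any of the 4 libraries. Of the 12 macrophage markers 1 was at 0 in ER+ replicate 2 and in ER- replicate 2, and of the 13 lymphocyte markers 3 and 2 were at 0 in the ER+ and 2 and 1 in the ER- libraries. Of the other lists of other cells, namely endothelial cells, pericytes, adipocytes, erythroid cells, and Schwann and mast cells, 0 members passed. The part of these cells in the differences above was not tested.

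**Figure D5:**
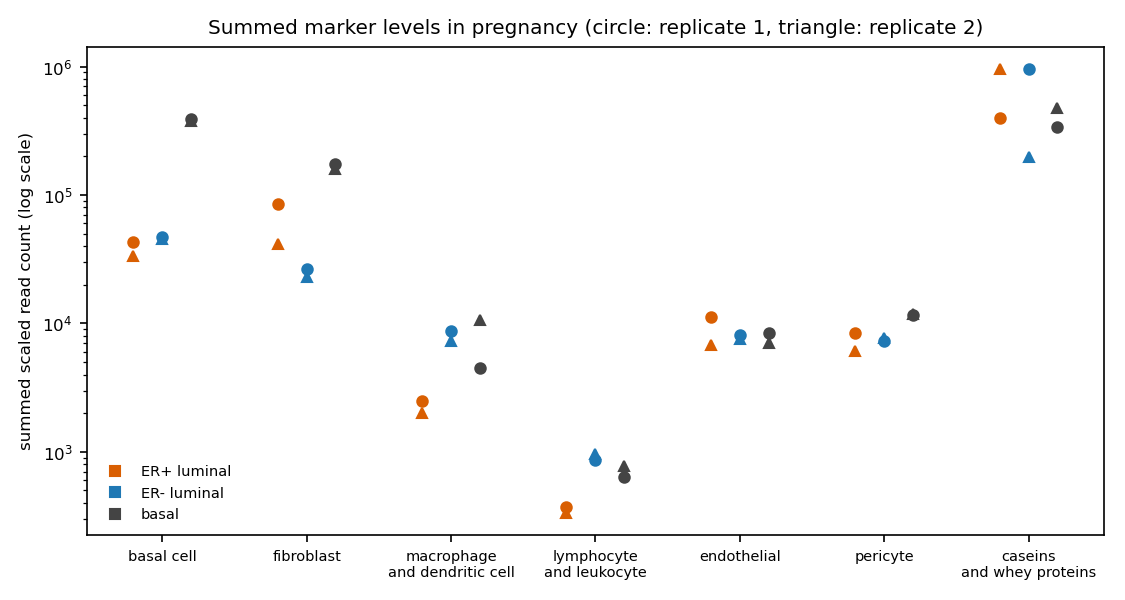
Summed scaled read counts (log axis) of marker lists of other cell types and of caseins and whey proteins in the 6 pregnancy libraries, with colour for the population and shape for the replicate. Fibroblast markers lie higher in ER+ and macrophage markers higher in ER- libraries, and casein sums cross between replicates of both luminal groups.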

How the data were processed

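RNA was extracted with an RNeasy micro kit from cells sorted by flow cytometry, and the Ovation Solo kit was used for sequencing libraries, per the labels' protocols. STAR, Picard, HTSeq and the builds GRCm38 and mm10 are named, without versions, in the submitters' processing notes. The deposited table holds a signal per gene: whole numbers that are, as inferred from the values, read counts scaled by the authors to 20000000 per library and rounded up. Undoing this returned 99.76% to 99.95% of non-zero values exactly (12.1% to 57% by chance). A strict test of whole steps passed for 3 of 18 libraries and for none of the pregnancy luminal ones, so depths, read numbers and the edgeR and DESeq2 alternatives rest on the inferred rounding. Depth was 5280331 to 6363534 reads per pregnancy luminal library. Of 46868 rows, 790 repeated a gene ID, leaving 46257 genes.

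limma 3.58.1 (R 4.3.3, trend and robust) was fitted to log2(value + 1) with 9 group means over 18 libraries, with differences between stages as interactions; calls have an adjusted p under 0.05, two-sided. edgeR 4.0.16 and DESeq2 1.42.0 served as alternatives, with other pseudocounts, filters, scalings, sample sets, thinning, array weights, a replicate block and each library left out. The fit was tested on simulated data. Genes were to be named from fixed lists and, among called genes above the median level, the 12 largest changes in each direction and the 8 largest stage differences; predicted genes were passed over, and the text names part of them, picked with values known. Rp1 was left out because its symbol belongs to more than 1 gene ID. Members and lists were chosen with earlier results of these data known. Promoters are RefSeq's in GRCm38.p6; windows of Foxa1, Csn1s1 and Glycam1 were chosen after their matches were seen. Gene positions are GENCODE's in GRCm38. Figures were drawn with matplotlib 3.10.9 and tables prepared with pandas 2.3.3 and numpy 2.4.6 under Python 3.11.15.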

Additional observations from a re-analysis of the deposited data

Results flagged for a closer look

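The ER+ minus ER- log2 fold change of 35 named genes differed between pregnancy and puberty or adults in limma's interaction test, in 59 differences, each flagged because a difference between stages passed an adjusted p of 0.05. Below, each value is the fold change in pregnancy minus that at the other stage, with its SE and adjusted p (limma, Benjamini-Hochberg). Of the 59, 31 were called under each alternative. For the other 28 the number of alternatives in which the call held is given, with each library whose omission ended it and, of the other settings, those of scaling by trimmed means, array weights, the luminal libraries alone, edgeR and DESeq2. The adult luminal libraries were the shallowest of the series and had the mitochondrial shares given with the stage comparison, and their part in these values was not tested.

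The following receptor, channel and enzyme genes had a higher fold change in pregnancy than at the other stages. Igf1r differed by 1.59 ± 0.32 from puberty (adjusted p = 0.0151) and by 1.79 ± 0.32 from adults (adjusted p = 0.00731). Its fold change in pregnancy itself was below 0, at -0.55, and did not pass (limma, adjusted p = 0.268). For Igf1r from puberty, the call held in 20 of 24 alternatives (highest adjusted p = 0.0899), but not without pregnancy ER- replicate 2, nor without puberty ER+ replicate 2 or ER- replicate 2. Erbb4 differed by 5.32 ± 0.54 from puberty (adjusted p = 0.000293) and by 5.36 ± 0.54 from adults (adjusted p = 0.000305). Scnn1b differed by 5.07 ± 0.61 from puberty (adjusted p = 0.000658) and by 3.36 ± 0.61 from adults (adjusted p = 0.00957). For Scnn1b from adults, the call held in 21 of 23 alternatives (highest adjusted p = 0.104), but not without adult ER- replicate 2, nor with array weights. Scnn1g differed by 5.39 ± 0.56 from puberty (adjusted p = 0.000202) and by 3.17 ± 0.56 from adults (adjusted p = 0.00731). Hsd11b2 differed by 5.16 ± 0.61 from puberty (adjusted p = 0.000437) and by 4.59 ± 0.61 from adults (adjusted p = 0.00126).

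Both imprinted genes called in pregnancy gained on the ER+ side. Peg3 differed by 3.28 ± 0.42 from puberty (adjusted p = 0.00102) and by 3.47 ± 0.42 from adults (adjusted p = 0.000857). H19 differed by 4.25 ± 1.01 from adults (adjusted p = 0.0491). For H19 from adults, the call held in 9 of 23 alternatives (highest adjusted p = 0.18), but not without pregnancy ER+ replicate 1, ER+ replicate 2 or ER- replicate 2, nor without adult ER+ replicate 2, ER- replicate 1 or ER- replicate 2, nor with trimmed-mean factors or in the 12 luminal libraries alone or with array weights or with edgeR.

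Genes with an ER- excess before pregnancy had positive differences, a smaller excess in pregnancy. Aldh1a3 differed by 3.45 ± 0.58 from puberty (adjusted p = 0.00711) and by 3.13 ± 0.58 from adults (adjusted p = 0.0132). For Aldh1a3 from adults, the call held in 21 of 23 alternatives (highest adjusted p = 0.0694), but not without pregnancy ER- replicate 2, nor without adult ER- replicate 2. Cxcl1 differed by 1.60 ± 0.37 from puberty (adjusted p = 0.0338) and by 2.13 ± 0.37 from adults (adjusted p = 0.00702). For Cxcl1 from puberty, the call held in 16 of 24 alternatives (highest adjusted p = 0.171), but not without pregnancy ER+ replicate 2, ER- replicate 1 or ER- replicate 2, nor without puberty ER+ replicate 2, ER- replicate 1 or ER- replicate 2. Krt23 differed by 2.79 ± 0.63 from puberty (adjusted p = 0.0292) and by 2.63 ± 0.63 from adults (adjusted p = 0.0424). For Krt23 from puberty, the call held in 16 of 24 alternatives (highest adjusted p = 0.154), but not without pregnancy ER+ replicate 1, ER+ replicate 2, ER- replicate 1 or ER- replicate 2, nor without puberty ER+ replicate 2, ER- replicate 1 or ER- replicate 2. For Krt23 from adults, the call held in 11 of 23 alternatives (highest adjusted p = 0.134), but not without pregnancy ER+ replicate 1, ER+ replicate 2, ER- replicate 1 or ER- replicate 2, nor without adult ER+ replicate 1, ER- replicate 1 or ER- replicate 2, nor in the 12 luminal libraries alone or with array weights or with edgeR. Sox10 differed by 2.37 ± 0.51 from puberty (adjusted p = 0.0288). For Sox10 from puberty, the call held in 17 of 24 alternatives (highest adjusted p = 0.138), but not without pregnancy ER- replicate 1 or ER- replicate 2, nor without puberty ER+ replicate 2, ER- replicate 1 or ER- replicate 2. Cebpd differed by 1.15 ± 0.27 from adults (adjusted p = 0.04). For Cebpd from adults, the call held in 12 of 23 alternatives (highest adjusted p = 0.133), but not without pregnancy ER+ replicate 2, ER- replicate 1 or ER- replicate 2, nor without adult ER+ replicate 1, ER+ replicate 2, ER- replicate 1 or ER- replicate 2, nor in the 12 luminal libraries alone or with array weights. Atp2b1 differed by 2.25 ± 0.27 from puberty (adjusted p = 0.000612) and by 1.96 ± 0.27 from adults (adjusted p = 0.00184). Slc20a1 differed by 1.49 ± 0.31 from puberty (adjusted p = 0.0174) and by 1.74 ± 0.31 from adults (adjusted p = 0.00717). For Slc20a1 from puberty, the call held in 19 of 24 alternatives (highest adjusted p = 0.104), but not without pregnancy ER+ replicate 2 or ER- replicate 2, nor without puberty ER+ replicate 2 or ER- replicate 2. Hey1 differed by 2.88 ± 0.46 from puberty (adjusted p = 0.00413) and by 3.03 ± 0.46 from adults (adjusted p = 0.00313).

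Of the 12 largest rises, H19 and the following 4 genes had a called stage difference. Slc16a5 differed by 4.22 ± 0.92 from puberty (adjusted p = 0.0245). For Slc16a5 from puberty, the call held in 17 of 24 alternatives (highest adjusted p = 0.13), but not without pregnancy ER+ replicate 1 or ER- replicate 2, nor without puberty ER+ replicate 2, ER- replicate 1 or ER- replicate 2. Pnmt differed by 6.69 ± 1.53 from adults (adjusted p = 0.0334). For Pnmt from adults, the call held in 10 of 23 alternatives (highest adjusted p = 0.234), but not without pregnancy ER+ replicate 1, ER+ replicate 2, ER- replicate 1 or ER- replicate 2, nor without adult ER+ replicate 1, ER+ replicate 2 or ER- replicate 2, nor in the 12 luminal libraries alone or with array weights or with edgeR or with DESeq2. Adra1a differed by 3.42 ± 0.72 from puberty (adjusted p = 0.0209). For Adra1a from puberty, the call held in 16 of 24 alternatives (highest adjusted p = 0.115), but not without pregnancy ER+ replicate 1 or ER- replicate 2, nor without puberty ER+ replicate 1, ER+ replicate 2, ER- replicate 1 or ER- replicate 2. Lgi2 differed by 5.65 from puberty (adjusted p = 0.026) and by 8.20 from adults (adjusted p = 0.00298). For Lgi2 from puberty, the call held in 16 of 24 alternatives (highest adjusted p = 0.143), but not without pregnancy ER+ replicate 2 or ER- replicate 2, nor without puberty ER+ replicate 1 or ER- replicate 2, nor in the 12 luminal libraries alone. For Lgi2 from adults, the call held in 22 of 23 alternatives (highest adjusted p = 0.421), but not with edgeR.

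Of the 12 largest falls 7 had one, and Stk26 was the one with a negative sign. Spns2 differed by 1.79 ± 0.42 from adults (adjusted p = 0.0428). For Spns2 from adults, the call held in 13 of 23 alternatives (highest adjusted p = 0.138), but not without pregnancy ER+ replicate 2, ER- replicate 1 or ER- replicate 2, nor without adult ER+ replicate 1, ER- replicate 1 or ER- replicate 2, nor in the 12 luminal libraries alone or with array weights. Cadm1 differed by 1.22 ± 0.31 from puberty (adjusted p = 0.0479) and by 1.92 ± 0.31 from adults (adjusted p = 0.00402). For Cadm1 from puberty, the call held in 10 of 24 alternatives (highest adjusted p = 0.184), but not without pregnancy ER+ replicate 2, ER- replicate 1 or ER- replicate 2, nor without puberty ER+ replicate 1, ER+ replicate 2, ER- replicate 1 or ER- replicate 2, nor in the 12 luminal libraries alone or with array weights. Il1rap differed by 1.69 ± 0.35 from puberty (adjusted p = 0.0174) and by 1.49 ± 0.35 from adults (adjusted p = 0.0381). For Il1rap from puberty, the call held in 18 of 24 alternatives (highest adjusted p = 0.101), but not without pregnancy ER+ replicate 2 or ER- replicate 1, nor without puberty ER+ replicate 2, ER- replicate 1 or ER- replicate 2. For Il1rap from adults, the call held in 12 of 23 alternatives (highest adjusted p = 0.127), but not without pregnancy ER+ replicate 2, ER- replicate 1 or ER- replicate 2, nor without adult ER+ replicate 1, ER- replicate 1 or ER- replicate 2, nor in the 12 luminal libraries alone or with array weights. Mamld1 differed by 1.82 ± 0.32 from adults (adjusted p = 0.00717). For Mamld1 from adults, the call held in 22 of 23 alternatives (highest adjusted p = 0.0511), but not in the 12 luminal libraries alone. Flrt3 differed by 2.39 ± 0.33 from puberty (adjusted p = 0.00144) and by 2.38 ± 0.33 from adults (adjusted p = 0.00187). Stk26 differed by -1.65 ± 0.30 from puberty (adjusted p = 0.00876). For Stk26 from puberty, the call held in 22 of 24 alternatives (highest adjusted p = 0.0612), but not without puberty ER+ replicate 2. Ephx1 differed by 1.47 ± 0.29 from puberty (adjusted p = 0.0133) and by 1.5 ± 0.29 from adults (adjusted p = 0.0125). For Ephx1 from puberty, the call held in 20 of 24 alternatives (highest adjusted p = 0.072), but not without pregnancy ER+ replicate 2, nor without puberty ER+ replicate 2 or ER- replicate 2. For Ephx1 from adults, the call held in 21 of 23 alternatives (highest adjusted p = 0.0636), but not without pregnancy ER+ replicate 2, nor without adult ER- replicate 2.

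Named for the size of their stage difference, 5 genes lay above 0. Pkd1l1 differed by 5.70 ± 1.16 from puberty (adjusted p = 0.0168). For Pkd1l1 from puberty, the call held in 19 of 24 alternatives (highest adjusted p = 0.0906), but not without pregnancy ER+ replicate 1 or ER- replicate 2, nor without puberty ER+ replicate 2 or ER- replicate 2, nor with edgeR. Papln differed by 4.52 ± 0.59 from puberty (adjusted p = 0.00225) and by 3.61 ± 0.59 from adults (adjusted p = 0.00864). Abca8b differed by 4.60 ± 0.94 from puberty (adjusted p = 0.0204) and by 5.21 ± 0.94 from adults (adjusted p = 0.0106). For Abca8b from puberty, the call held in 19 of 24 alternatives (highest adjusted p = 0.108), but not without pregnancy ER+ replicate 1 or ER- replicate 2, nor without puberty ER+ replicate 2 or ER- replicate 1. For Abca8b from adults, the call held in 19 of 23 alternatives (highest adjusted p = 0.115), but not without pregnancy ER- replicate 2, nor without adult ER- replicate 2, nor with array weights or with edgeR. B4galt5 differed by 3.75 ± 0.63 from puberty (adjusted p = 0.00506) and by 4.53 ± 0.63 from adults (adjusted p = 0.00184). Hpgd differed by 4.06 ± 0.71 from puberty (adjusted p = 0.00707) and by 4.44 ± 0.71 from adults (adjusted p = 0.00432).

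Another 4 lay below 0, with an ER+ excess at puberty that was smaller or absent in pregnancy. Wnt5a differed by -3.16 ± 0.53 from puberty (adjusted p = 0.00707). Slco2a1 differed by -3.79 ± 0.60 from puberty (adjusted p = 0.00781) and by -2.68 ± 0.60 from adults (adjusted p = 0.0455). For Slco2a1 from adults, the call held in 8 of 23 alternatives (highest adjusted p = 0.152), but not without pregnancy ER+ replicate 1, ER+ replicate 2, ER- replicate 1 or ER- replicate 2, nor without adult ER+ replicate 1, ER+ replicate 2 or ER- replicate 1, nor with trimmed-mean factors or with array weights or with edgeR. Atp2c2 differed by -2.80 ± 0.47 from puberty (adjusted p = 0.00506) and by -2.17 ± 0.47 from adults (adjusted p = 0.0252). For Atp2c2 from adults, the call held in 16 of 23 alternatives (highest adjusted p = 0.125), but not without pregnancy ER+ replicate 1 or ER- replicate 2, nor without adult ER+ replicate 2, ER- replicate 1 or ER- replicate 2, nor with array weights. Steap2 differed by -3.12 ± 0.26 from puberty (adjusted p = 4.12e-05) and by -1.74 ± 0.26 from adults (adjusted p = 0.00298).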

How the results depend on the processing

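In pregnancy 407 genes were called, 361 higher and 46 lower; 513 and 427 differed from puberty and adults. Lower genes numbered 76 with log2(value + 10), 21 with trimmed-mean and 23 with median-ratio factors, 23 in the 12 luminal libraries alone, 21 without trend and robust, and 15 with edgeR. The 6 pregnancy libraries alone gave 636 with 165 lower, array weights 244 with 235 higher and 9 lower, and DESeq2 756 with 673 higher and 83 lower. Differences from puberty numbered 154 without trend and robust and 1194 with DESeq2; those from adults numbered 259 in the 12 luminal libraries alone, 200 with array weights and 674 with DESeq2. Leaving out 1 library gave 67 to 821 genes, 63 to 572 higher and 0 to 249 lower, with 159 to 711 differences from puberty and 195 to 592 from adults. The share higher was 88.7%, but 74.1% in the 6 libraries alone, 69.7% without ER+ replicate 2 and 100% without ER- replicate 2. The replicate block gave 768 genes, 236 of them lower (69.3% higher), and 968 and 819 stage differences. Same-numbered samples had deviation correlations of 0.105, 0.0603 and 0.0151 in the 3 pairs of populations, and the labels do not say what the numbers mark, so pairing is not established. Without the adult libraries 419 genes were called. Of 1342 values of the 61 called named genes under alternatives 1012 kept their call, 330 lost it and 0 reversed; of 1387 stage values 196 lost it and 0 reversed. The causes were not tested. Depth limits genes near 3 reads, and 2 libraries a group limit every call.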

Other observations

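Of the 62 genes that passed under each of the 22 alternatives, 13 were named by the rule or the lists. The following others were picked after their values were seen. Tfap2b, an AP-2 transcription factor gene, was at 9137 and 5554 in ER+ and at 1010 and 819 in ER- cells (limma 2.97 ± 0.22, adjusted p = 1.38e-05). Kcnh1, a voltage-gated potassium channel gene, was at 5089 and 2668 against 260 and 188 (4.05 ± 0.30, adjusted p = 1.43e-05). Wnk4, a kinase gene that regulates sodium and chloride transport, was at 5289 and 2852 against 202 and 211 (4.23 ± 0.42, adjusted p = 0.000105). In each of these 3 genes both ER+ libraries lay far above both ER- libraries. Tmprss6, a membrane serine protease gene, was at 8653 and 6571 against 344 and 391 (4.36 ± 0.44, adjusted p = 0.000105). Bmpr1b, a receptor gene for bone morphogenetic proteins, was at 2950 and 1014 against 101 and 76 (4.29 ± 0.50, adjusted p = 0.000306).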
